A study of Homo sapiens with 6 samples.

Results

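The genes that carry iron into the cell, store it, release it and sense it were examined in mesothelioma cells after inhibition of miR-503. The group held 9 genes: TFRC, STEAP3 and SLC11A2 for uptake, FTH1, FTL and NCOA4 for storage, SLC40A1 for export, and ACO1 and IREB2 for sensing. It was set up around TFRC, whose difference between the groups on these same arrays was already known, so the TFRC values below describe a gene that was picked for them. On the array 7 of the 9 genes were matched to a row, each to 1 row, among 21448 rows tested, of which 17709 carried a gene symbol. FTH1 and IREB2 were not matched and are not analysed here.

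RNA came from MSTO-211H, a human cell line from a biphasic pleural mesothelioma. The control group comprised 3 arrays and the anti-miR-503 group, in which cells received an inhibitor of miR-503, comprised another 3, all collected at 48 h, with 100 ng of total RNA per array. Sources differ on the control cultures, which are called untreated in the sample titles, vehicle-treated with DMSO in the treatment note, and both treated with a negative control and untreated in the methods. All arrays came from 1 cell line grown in culture. The measurement was a log2 signal per gene on a whole-transcript microarray, normalised by RMA.

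Most cells take up iron bound to transferrin. The transferrin receptor TFRC carries the complex into endosomes, STEAP3 reduces the released ferric iron, and SLC11A2 (DMT1) moves ferrous iron into the cytosol. Iron that is not used is stored in ferritin, a shell of FTH1 and FTL chains, and NCOA4 delivers ferritin to the lysosome when iron is needed. SLC40A1 (ferroportin) is the known cellular iron exporter. The iron regulatory proteins ACO1 and IREB2 bind iron-responsive elements when iron is scarce, which blocks translation of the ferritin transcripts through their 5′ untranslated region and stabilises the TFRC transcript through its 3′ untranslated region. Proliferating cells commonly carry much TFRC, since iron is needed for DNA synthesis.

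The sequence of the inhibited miRNA and the start of the iron-responsive element of FTL are shown because the first defines the treatment and the second belongs to the RNA element through which ferritin is controlled. In hsa-miR-503-5p, which lies on the minus strand at chrX:134546371-134546393 (GRCh38.p14, RefSeq), capitals mark the seed, bases 2 to 8. In FTL, bases 21 to 50 of the transcript lie in the 5′ untranslated region on the plus strand at chr19:48965329-48965358 (GRCh38.p14, RefSeq), and capitals mark the loop letters CAGTGN. The stretch ends where the available window ends, shortly after the loop, so most of the 3′ arm of the hairpin is not shown.
hsa-miR-503-5p: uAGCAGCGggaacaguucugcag
FTL: gtctgtctcttgcttcaaCAGTGTttggac

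The letters CAGTGN were searched in the first 50 transcribed bases of each RefSeq start window, which 8 of the 9 genes had, in 13 windows. On the transcribed strand 2 windows held them, the FTL window and 1 of NCOA4. Of all 35116 windows, 6.36% held these letters on the transcribed strand and 12% on either strand. A match to 6 letters is a description of the window and not evidence of a working element. Elements beyond the first 50 transcribed bases, such as those in the 3′ untranslated region of TFRC, were outside the search. A window without a match therefore does not show that a gene lacks an element.

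Array medians lay between 6.56 and 6.63 on the log2 scale. The background of an array was taken as the 95th percentile of its 612 negative control rows, which was 7.44 to 8.09, and 40.3% to 43.6% of rows were above it. Anti-miR-503 replicate 1 correlated more closely with each control array than with the other anti-miR-503 arrays (0.980 and 0.977). Its correlations with control replicates 1, 2 and 3 were 0.984, 0.987 and 0.991, across genes, which are not independent replicates. Results are also given without anti-miR-503 replicate 1. That choice rested on the values of the array, so p-values from fits without it do not allow for the choice. Control replicate 3 and anti-miR-503 replicate 1 also had the lowest mitotic signal. The median of 16 mitotic genes was 8.61 on control replicate 3 and 9.39 on anti-miR-503 replicate 1, against 11.73 to 12.28 on the other 4. Of 10 mesothelial markers, MSLN, CALB2, KRT8, KRT18 and VIM were above background on every array, UPK3B on 2 control arrays, and WT1, KRT5, PDPN and LRRN4 on none. No leukocyte, macrophage or hepatocyte marker was above background on any array, PTPRC, MS4A1, CD14, MRC1, APOA1 and HAMP included. The exceptions among markers of other cell types were PDGFRB, 1 of 5 matched in the fibroblast list, and HBA1, 1 of 6 matched in the erythroid list. HBA1, with a sequence close to that of HBA2, was above background on the 3 anti-miR-503 arrays only. Its signals were 7.01, 7.40 and 7.27 on control and 7.81, 7.92 and 7.50 on anti-miR-503 arrays. The background itself was lower on anti-miR-503 arrays (7.75, 7.54 and 7.44) than on control arrays (7.83, 8.09 and 7.77). The log2 of the summed linear signals of the erythroid list was 8.41 to 8.60 on control and 8.72 to 9.04 on anti-miR-503 arrays, and the part of these markers in the results was not tested.

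Among the iron genes, TFRC was lower with anti-miR-503 and the remaining 6 measured genes did not pass the 2-fold threshold, which required an unadjusted p of 0.05 or less in limma and at least a 2-fold difference. Over all rows, 0.914% were called lower and 0.872% higher by this rule, 1.79% in either direction. After Benjamini-Hochberg adjustment over all rows, none of the 21448 rows had an adjusted p under 0.05 in limma, and none did by the methods' t-test. At an unadjusted p of 0.05 or less limma gave 1377 rows (6.42%). The median log2 fold change of the 7 genes was 0.022 and that of all rows was 0.01. With any 1 array left out the median of the 7 was negative, from -0.151 to -0.033. Without SLC40A1, which was not above background, the median of the other 6 was -0.116, against -0.041 for all rows above background on 1 or more arrays. The control and anti-miR-503 arrays did not overlap for 2 of the 7 genes, TFRC lower and FTL higher, where 4.6% of all rows were lower and 5.92% higher without overlap, 10.5% together. At a 1.5-fold threshold with the same p TFRC was again the 1 gene called, against 5.73% of all rows.

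**Figure D1:**
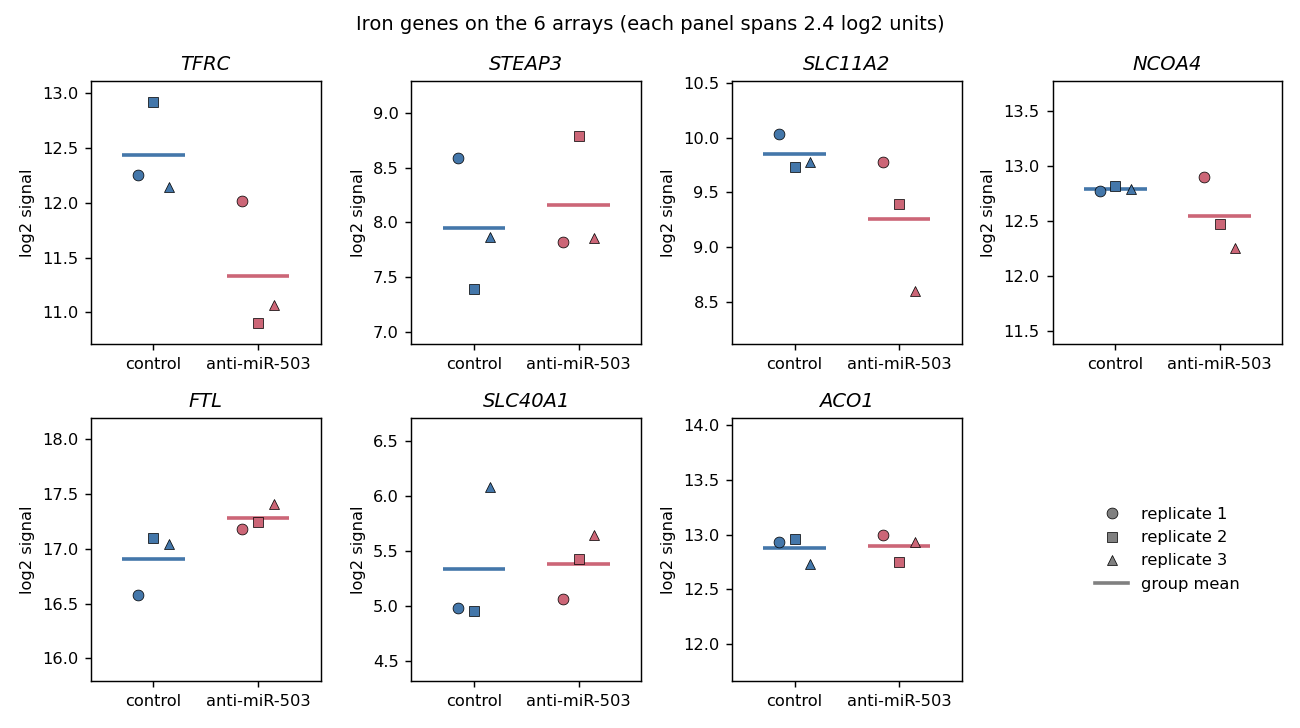
Log2 RMA signal of the 7 measured iron genes on each of the 6 arrays, with control arrays on the left and anti-miR-503 arrays on the right of each panel, a marker shape for each replicate number and a bar at each group mean. TFRC lies between 12.14 and 12.92 on control arrays and between 10.90 and 12.02 on anti-miR-503 arrays, FTL is slightly higher on all 3 anti-miR-503 arrays, and SLC40A1 is below background on each array.

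TFRC, the receptor that brings transferrin-bound iron into the cell, had log2 signals of 12.25, 12.92 and 12.14 on the control arrays. On the anti-miR-503 arrays the signals were 12.02, 10.90 and 11.07. The highest anti-miR-503 array was therefore below the lowest control array, by a small margin for replicate 1 and by a wide one for replicates 2 and 3. Fold changes here are anti-miR-503 over control as the arrays are labelled, and the gene table published with the study lists TFRC with the opposite sign, while the study's text describes the biomarkers among which it lists TFRC as downregulated. Whether that table gives control over anti-miR-503 or the array labels are switched was not settled, and switched labels would turn the sign of each fold change given here. Means were 12.44 ± 0.43 and 11.33 ± 0.60 (SD, n = 3 each), a log2 fold change of -1.11 (SE 0.35, 95% interval -1.91 to -0.31), or 2.16-fold less signal. The limma p was 0.0125 before and 0.756 after adjustment over all rows. Those biomarkers were selected on these arrays, so the TFRC difference is not independent evidence. Since RNA came from whole cultures, fewer TFRC-expressing cells and less TFRC RNA per cell cannot be told apart.

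Relative to the control mean, TFRC differed by -0.42, -1.54 and -1.37 on anti-miR-503 replicates 1, 2 and 3. Without replicate 1 the log2 fold change was -1.45 (SE 0.30, adjusted p = 0.0773 in limma). Without control replicate 2 it was -0.86, without anti-miR-503 replicate 2 it was -0.89 and without anti-miR-503 replicate 3 it was -0.98, and in each of these fits TFRC no longer passed the 2-fold threshold. The sign was negative in every fit that left out 1 array.

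**Figure D2:**
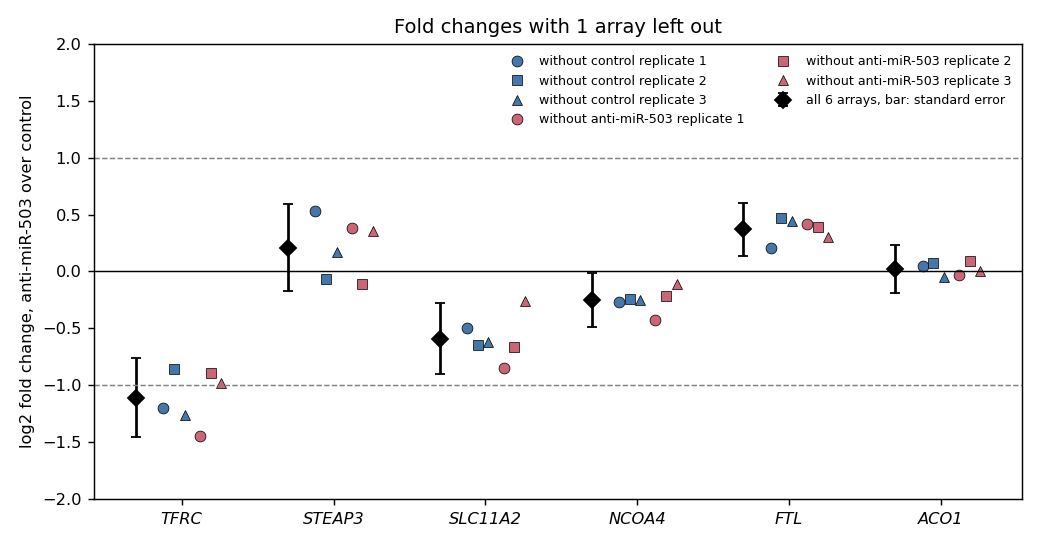
Log2 fold change, anti-miR-503 over control, of the 6 iron genes above background on 1 or more arrays, with all 6 arrays (diamonds, bar: standard error) and with each array left out in turn, and dashed lines at a 2-fold difference. TFRC stays negative, from -1.45 to -0.86, and FTL positive, while ACO1 and STEAP3 cross 0.

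TFRC and the mitotic genes were set side by side on each array, with no test. Anti-miR-503 replicates 2 and 3, with the lowest TFRC signals, had mitotic medians of 12.28 and 11.90, close to the 11.73 and 12.13 of control replicates 1 and 2. Control replicate 3, with the lowest mitotic median of 8.61, had a TFRC signal of 12.14, the lowest of the controls. Within the controls both measures had the same order, and within the anti-miR-503 arrays they had opposite orders. Anti-miR-503 replicate 1 had the lowest mitotic median of its group, 9.39, and the highest TFRC signal, 12.02. The part of growth state in the TFRC difference was not tested. The mitotic list itself had 0 of 16 genes past the 2-fold threshold and a median log2 fold change of 0.209. Each group held an array with a low mitotic median, and standard errors of these genes ran from 0.77 to 1.32. The count of 0 therefore does not show that growth state was equal. PTTG1 and TTK were its genes with the smallest p.

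**Figure D3:**
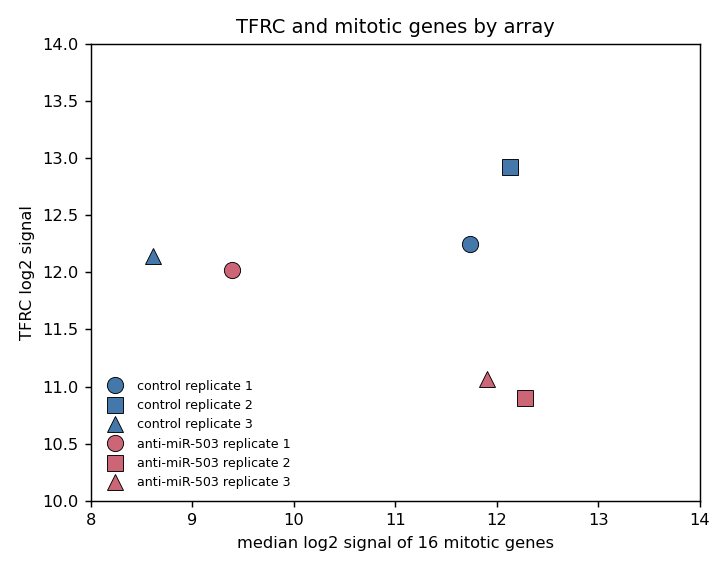
Log2 RMA signal of TFRC against the median log2 signal of 16 mitotic genes, 1 point per array. The arrays with the lowest TFRC, anti-miR-503 replicates 2 and 3, have mitotic medians of 12.28 and 11.90, and the arrays with the lowest mitotic medians have TFRC of 12.14 and 12.02.

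STEAP3, the endosomal ferrireductase of the transferrin cycle, had log2 signals of 8.59, 7.39 and 7.87 on control and 7.82, 8.79 and 7.86 on anti-miR-503 arrays. The groups overlapped, and the control value of 7.39 was below the background of its array. Control replicate 3 (background 7.77) and anti-miR-503 replicate 1 (background 7.75) were only just above theirs. The log2 fold change was 0.21 (SE 0.38, 95% interval -0.65 to 1.07, adjusted p = 0.923 in limma), and it was -0.11 without anti-miR-503 replicate 2.

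SLC11A2, the transporter that moves ferrous iron out of the endosome, had log2 signals of 10.03, 9.73 and 9.78 on control arrays and 9.78, 9.39 and 8.60 on anti-miR-503 arrays. Replicate 1 lay within the control range, and replicates 2 and 3 lay below it. The log2 fold change was -0.59 (SE 0.31, 95% interval -1.30 to 0.13, adjusted p = 0.766 in limma). It was -0.85 without anti-miR-503 replicate 1, with an unadjusted p of 0.022 and an adjusted p of 0.25, and -0.26 without anti-miR-503 replicate 3. SLC11A2 has transcript forms with and without an iron-responsive element, which a single array value does not separate.

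FTL, the light chain of ferritin, had log2 signals of 16.58, 17.10 and 17.04 on control arrays and 17.18, 17.24 and 17.41 on anti-miR-503 arrays. Each anti-miR-503 array was above each control array, with control replicate 1 the lowest. The log2 fold change was 0.37 (SE 0.23, 95% interval -0.16 to 0.90, adjusted p = 0.777 in limma), a 1.29-fold difference, and 0.21 without control replicate 1. The signal lay near the highest row of each array, 18.02 to 18.08, and FTL has many processed pseudogenes whose transcripts could share its probes, so the value is uncertain. Ferritin is controlled largely at translation, through the element printed in part above, which an RNA level does not measure.

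NCOA4, the cargo receptor that takes ferritin to the lysosome, had log2 signals of 12.77, 12.82 and 12.79 on control arrays and 12.90, 12.47 and 12.25 on anti-miR-503 arrays. The control arrays lay within a narrow band, which replicate 1 exceeded and replicates 2 and 3 fell short of. The log2 fold change was -0.25 (SE 0.24, 95% interval -0.79 to 0.28, adjusted p = 0.835 in limma). It was -0.43 without anti-miR-503 replicate 1 and -0.11 without anti-miR-503 replicate 3.

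SLC40A1, the iron exporter, was not above background on any array. Its log2 signals were 4.98, 4.95 and 6.08 on control and 5.06, 5.43 and 5.65 on anti-miR-503 arrays. A difference between such values is not read as a fold change.

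ACO1, which is a cytosolic aconitase when it holds an iron-sulphur cluster and an RNA-binding iron regulatory protein when it does not, varied least. Log2 signals were 12.93, 12.96 and 12.73 on control and 13.00, 12.75 and 12.93 on anti-miR-503 arrays, a range of 0.28 over all 6. The log2 fold change was 0.02 (SE 0.21, adjusted p = 0.987 in limma), and its 95% interval ran from 0.729-fold to 1.41-fold. The switch between the forms of ACO1 depends on its cluster and is not visible in its RNA.

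The genes around these pathways were examined in 8 lists that held 138 distinct genes, of which 128 were matched and 96 were above background on 1 or more arrays. By the 2-fold threshold 3 were called higher and 0 lower, 2.34% of those matched against 1.79% of all rows. At an unadjusted p of 0.05 or less there were 11, or 8.59%, against 6.42% of all rows, and 0 after adjustment in limma. The median log2 fold change of the 128 genes was 0.007.

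**Figure D4:**
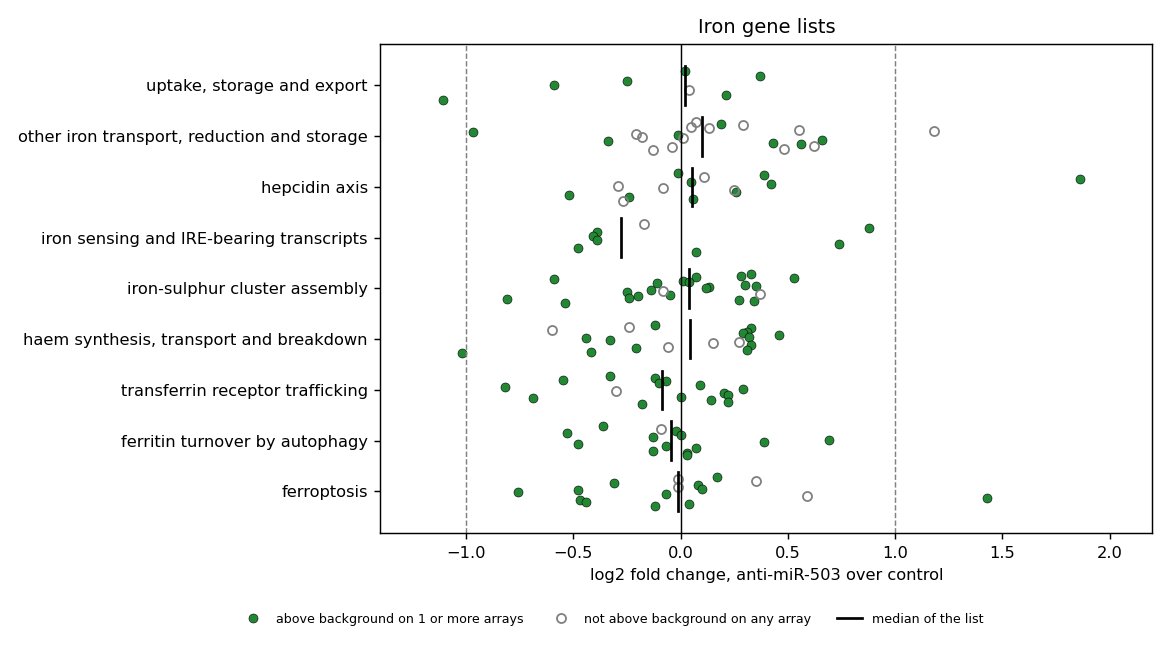
Log2 fold change, anti-miR-503 over control, of each gene in the uptake, storage and export group and in 8 further iron lists, with filled points for genes above background on 1 or more arrays, open points for the rest and a bar at the median of each list. Dashed lines mark a 2-fold difference, and TFRC (-1.11) and UROS (-1.02) are the points beyond the lower one.

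In other iron transport, reduction and storage, 20 of 21 genes were matched (PCBP2 was not), 13 were not above background on any array, and the median log2 fold change was 0.1. LTF, the secreted iron-binding protein lactotransferrin, was the gene called higher, but its signals of 5.21, 5.00 and 4.80 on control and 5.16, 6.66 and 6.73 on anti-miR-503 arrays were all below background, so no fold is given. A pair of genes was chosen after their values were seen. MCOLN1, a lysosomal channel that releases iron, had log2 signals of 11.05, 10.69 and 11.05 on control and 10.85, 9.75 and 9.29 on anti-miR-503 arrays (log2 fold change -0.97, SE 0.38, adjusted p = 0.756 in limma). SLC25A37, the mitochondrial iron importer mitoferrin 1, had 11.58, 11.13 and 11.24 against 11.60, 12.41 and 11.92, with no overlap (log2 fold change 0.66, SE 0.27, adjusted p = 0.756).

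In the hepcidin axis, which sets systemic iron in the liver, 14 of 15 genes were matched (BMPR1A was not), and 1 was called higher. This was BMP6, a ligand that induces hepcidin, with log2 signals of 5.54, 5.76 and 6.52 on control and 6.12, 8.49 and 8.79 on anti-miR-503 arrays. Only anti-miR-503 replicates 2 and 3 were above background, and no fold is given. Hepcidin itself (HAMP) was not above background on any array.

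Of the list of iron sensing and transcripts with an iron-responsive element, 8 of 9 genes were matched, and none passed the 2-fold threshold. The median log2 fold change was -0.278, against 0.01 for all rows, with 5 of the 8 genes negative and 3 positive. The pair with the smallest p, CDC14A and FBXL5, were both among the 3 positive genes. CDC14A, a phosphatase with an iron-responsive element in 1 of its transcript forms, had log2 signals of 8.40, 8.97 and 9.02 on control and 9.45, 9.74 and 9.85 on anti-miR-503 arrays. The groups did not overlap (log2 fold change 0.88, SE 0.25, adjusted p = 0.756 in limma). FBXL5, the iron-sensing subunit of the ubiquitin ligase that removes IREB2, had 8.30, 8.84 and 8.64 against 8.82, 9.85 and 9.35 (log2 fold change 0.74, SE 0.30, adjusted p = 0.756), and the groups overlapped.

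For iron-sulphur cluster assembly 23 of 28 genes were matched, and none passed the 2-fold threshold. NDOR1, a reductase that supplies electrons to the cytosolic pathway, had log2 signals of 9.63, 8.73 and 8.94 on control and 8.36, 8.54 and 7.98 on anti-miR-503 arrays, with no overlap (log2 fold change -0.81, SE 0.29, adjusted p = 0.756 in limma). CIAO2B, of the complex that inserts clusters into cytosolic and nuclear proteins, had 12.41, 12.31 and 12.18 against 12.75, 13.01 and 12.73, also with no overlap and in the other direction (log2 fold change 0.53, SE 0.21, adjusted p = 0.756).

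For haem synthesis, transport and breakdown 18 of 20 genes were matched, none passed the 2-fold threshold, and the median log2 fold change was 0.045. UROS, which closes the porphyrin ring, had log2 signals of 11.92, 11.45 and 11.72 on control and 12.24, 10.14 and 9.65 on anti-miR-503 arrays. Replicate 1 was the highest of the 6 and replicates 2 and 3 the lowest, so the log2 fold change was -1.02 (SE 0.59, adjusted p = 0.774 in limma) with all arrays and -1.80 (adjusted p = 0.0379) without replicate 1. UROD, the next enzyme, had a log2 fold change of -0.42 (SE 0.29, adjusted p = 0.79).

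The endocytic machinery that carries TFRC was matched in full, 16 of 16 genes, with none past the 2-fold threshold and a median log2 fold change of -0.085. DNM2, the dynamin that cuts vesicles from the membrane, had log2 signals of 11.60, 11.59 and 10.68 on control and 11.09, 10.33 and 9.99 on anti-miR-503 arrays, overlapping between groups (log2 fold change -0.82, SE 0.36, adjusted p = 0.756 in limma). AP2M1, the adaptor subunit that recognises the internalisation signal of TFRC, had a log2 fold change of -0.55 (SE 0.26, adjusted p = 0.756).

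In ferritin turnover by autophagy, all 14 genes were matched, none passed the 2-fold threshold, and the median log2 fold change was -0.044. GABARAPL1, an autophagosome membrane protein of the ATG8 family, had log2 signals of 11.93, 11.77 and 12.18 on control and 12.73, 12.83 and 12.39 on anti-miR-503 arrays, with no overlap (log2 fold change 0.69, SE 0.23, adjusted p = 0.756 in limma). Its relative GABARAPL2 also had no overlap (log2 fold change 0.39, SE 0.22, adjusted p = 0.774).

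In ferroptosis, the cell death that depends on iron and lipid peroxidation, all 16 genes were matched, and the median log2 fold change was -0.008. SAT1, an enzyme of polyamine breakdown, was the gene called higher, with log2 signals of 10.93, 10.47 and 9.93 on control and 10.61, 12.96 and 12.05 on anti-miR-503 arrays. The groups overlapped because replicate 1 lay within the control range (log2 fold change 1.43, SE 0.55, adjusted p = 0.756 in limma).

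Without anti-miR-503 replicate 1, 9 of the 128 matched genes of these lists passed the 2-fold threshold (7.03%, against 6.23% of all rows), and 3 of them were those called with all 6 arrays. STEAP1, LTF, BMP6, FBXL5 and SAT1 were called higher, as were 2.42% of all rows, and MCOLN1, UROS, DNM2 and RAB4A lower, as were 3.81%. LTF, BMP6 and UROS had an adjusted p under 0.05 in limma in that fit, as did 0.718% of all rows. The array was left out because it resembled the control arrays more than the other anti-miR-503 arrays, and these p-values do not allow for that. LTF was above background on 0 arrays and BMP6 on 2.

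The 5 named genes whose profile over the 6 arrays was most like that of TFRC were found by the root mean square difference of log2 signals, each centred on its own mean, among 9327 genes with a mean above the median of all rows. They were SERPINB8 (0.129), FAM120B (0.18), ZFX (0.182), NACC2 (0.186) and VPS45 (0.199). FAM120B was above background on 1 control array and no anti-miR-503 array. SERPINB8, an intracellular serine protease inhibitor, had log2 signals of 10.30, 10.88 and 10.21 on control and 9.84, 9.10 and 9.24 on anti-miR-503 arrays. The nearest genes of the iron lists were DNM2 (0.327), KEAP1 (0.361), SLC7A11 (0.388), AP2M1 (0.401) and ATG7 (0.409).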

How the data were processed

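The authors hybridised RNA to Clariom S arrays and, per the labels and methods, processed the scans with the Transcriptome Analysis Console and RMA, and the deposited values are log2 signals after background correction, quantile normalisation and summarisation per gene. Arrays have no read depth, so the number of arrays limits the precision. The labels call the replicates biological. The file held 24351 rows. The 2903 array control rows were left out, and 21448 rows were tested, 17709 with 1 gene symbol, 0 with several and 3739 with none. Symbols came from the platform annotation, and 0 changed through RefSeq identifiers.

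Groups were compared with limma 3.58.1 in R 4.3.3 (lmFit, eBayes), with p-values adjusted by Benjamini-Hochberg over all rows. A row was called where the unadjusted p was at most 0.05 and the groups differed 2-fold or more. A gene below the 95th percentile of 612 negative control rows on every array of a group was given no fold in the results, although its fitted value entered list medians and the comparison of settings. The test was tried on simulated data. Figures were drawn with matplotlib 3.10.9.

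The members and lists were chosen with earlier results of these data known. Text names all members, genes of each further list past the 2-fold threshold or else the pair with the smallest p, and the 5 genes most like TFRC. Outside this rule it names MCOLN1 and SLC25A37, which were chosen after their values were seen. It also names cell type markers, list genes called without anti-miR-503 replicate 1 and the list genes nearest to TFRC. Alternatives were an unpaired t-test, a variance trend, array weights, a level filter and further normalisation. A replicate block, 1 row per gene and leaving out each array were also tried. The study's methods give the unpaired t-test for 2 groups in general and name only the Transcriptome Analysis Console for the arrays. Leaving out control replicate 3 together with anti-miR-503 replicate 1 was added after the data were seen.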

Additional observations from a re-analysis of the deposited data

How the results depend on the processing

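TFRC was lower with anti-miR-503 under every alternative run. By an unpaired t-test, which is not the study's stated array analysis, its p was 0.0601, so that 0 iron genes passed the 2-fold threshold. The count was also 0 when an adjusted p under 0.05 was required. The t-test called 38 rows higher and 55 lower, against 187 and 196, and 0 wider list genes higher. The fit of rows at or above the median level tested only 10724 rows and gave 118 and 123. Array weights gave 342 and 411 of 21448 rows. Of the 128 matched wider list genes 3 were higher and 3 lower there, with ACO1 at -0.05. With an adjusted p under 0.05 required, 0 rows were called in either direction.

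Leaving out 1 array gave 81 to 519 rows higher and 82 to 818 lower, of 21448 tested, and 0 to 1 iron genes. Of the 128 matched wider list genes 0 to 5 were higher and 0 to 4 lower. The highest row counts were those without anti-miR-503 replicate 1, where 7.03% of wider list genes and 6.23% of all rows were called. The log2 fold change ranged from -0.05 to 0.09 for ACO1 and from -0.11 to 0.53 for STEAP3. The fitted value of SLC40A1, which was below background on all 6 arrays and is not read as a fold change, ranged from -0.15 to 0.41. Without both control replicate 3 and anti-miR-503 replicate 1, 663 of 21448 rows were higher and 951 lower. Of the 128 matched wider list genes 7 were higher and 8 lower. In that fit ACO1 was at -0.11, TFRC at -1.60 and the fitted value of SLC40A1 at 0.58. The median of the 7 iron genes was -0.105 there and -0.049 with array weights, against 0.022. The cause of these differences was not tested.

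Replicate numbers are shared between the groups. The deviations of same-numbered arrays from their group means correlated at -0.1, 0.213 and 0. The highest correlation was between control replicate 3 and anti-miR-503 replicate 1 (0.245). With 3 arrays per group these values cannot show whether same-numbered arrays were paired. With the replicate number as a block 197 rows were higher and 228 lower, and TFRC remained at -1.11 and called, as no member's call changed.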
